A study of Mus musculus with 1627 samples.

Results

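Regulatory T cells (Tregs) from injured muscle were described here that carried granzyme B transcripts without transcripts of the IL-33 receptor gene Il1rl1 (ST2). A muscle cell was counted as a member when it held at least 2 unique molecular identifiers (UMIs, each standing for 1 captured mRNA) of Gzmb and 0 of Il1rl1. This rule took 33.3% of the 1368 muscle cells, which are 28% of the 1627 cells in all. All cells came from 8-month-old male B6 Foxp3-Ires-Gfp mice, which report Foxp3 with GFP, taken 4 days after cardiotoxin, a myotoxin, was given to the muscle. The 1 spleen library (15.9% of all cells) came from mice with the same injury, so no uninjured group was compared. Live TCRb+ CD4+ GFP+ cells were sorted, from muscle after digestion with collagenase and dispase and from spleen after mechanical dissociation, and were encapsulated in droplets by the inDrops protocol, which primes on the poly(A) tail. The number of animals behind each library and whether animals were pooled were not given in the sources used here, so cells are not replicates and no p-value was computed. Differences are given as folds in each muscle library with exact binomial 95% intervals, which cover counting error only.

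Granzyme B is a serine protease that cytotoxic lymphocytes store in granules and deliver into target cells, usually with the pore-forming protein perforin and on a scaffold of the proteoglycan serglycin. Activated Tregs can also make it, and IL-2 receptor signalling is among the signals that induce the gene in T cells. Tregs that accumulate in injured muscle are known for repair functions, and ST2, through which they sense IL-33, is a common marker of tissue Tregs.

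The libraries held 1533277 UMIs (muscle library 1), 1916496 UMIs (muscle library 2) and 982570 UMIs (spleen), with medians of 1976, 2488 and 3541 UMIs per cell. The muscle libraries shared 11 cell barcodes, the spleen library shared 1 with muscle library 1, and 0 with muscle library 2. The members had a median of 2105 UMIs and 959 genes per cell in library 1, and of 2446 UMIs and 947 genes in library 2. Muscle cells with 0 UMIs of both genes, called Gzmb-0 cells below, were shallower, at 1730 and 2250 UMIs. For this reason the members were paired with Gzmb-0 cells of equal depth within each library, which kept 87.7% of the members in library 1 (200 pairs, medians 1979 and 1991 UMIs) and 95.6% in library 2 (medians 2395 and 2375 UMIs). The 28 and 10 members without a partner stayed out of that comparison. Most values below are mean UMIs per cell over these pairs.

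The members made up 33.8% of muscle library 1 (95% exact interval 30.3 to 37.5) and 32.7% of muscle library 2 (29.2 to 36.3), close to each other, against 4.63% of the spleen library (12 cells, 2.42 to 7.95) by the same rule. Gzmb UMIs per member had a median of 7 in library 1 (quartiles 4 and 14, highest 71) and of 8 in library 2 (quartiles 5 and 15, highest 130). Summed over the members, Gzmb stood at 4564 CPM (UMIs scaled to a common total) in library 1 and 4561 CPM in library 2, and the 12 spleen cells were at 3656 CPM. These values chose the cells and are a description. Just inside the threshold, 29 and 23 members held exactly 2 Gzmb UMIs. Just outside it, 40 and 38 cells without Il1rl1 held exactly 1. No cell type that should lack Gzmb was sorted from muscle, so the level that free RNA gives there was not measured. In the spleen library 1 cell (0.386%) held exactly 1 Gzmb UMI without Il1rl1.

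**Figure D1:**
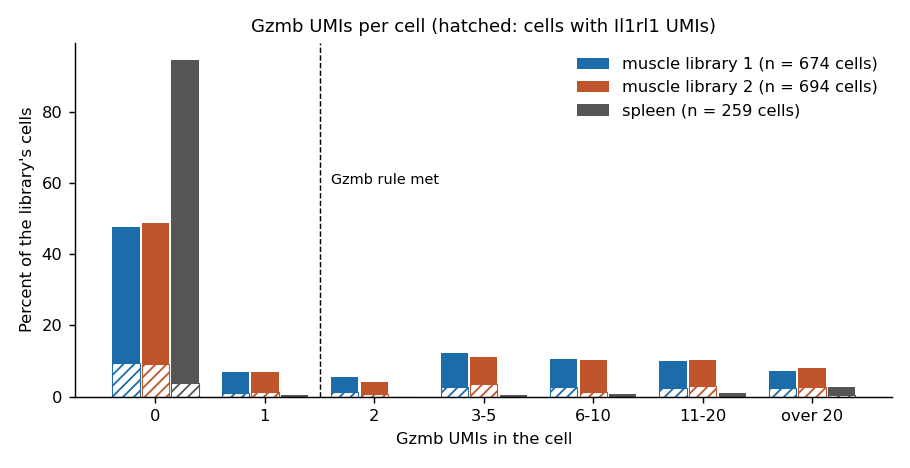
Percent of each library's cells (vertical axis) by Gzmb UMIs in the cell (horizontal axis), with bars for the muscle libraries and the spleen library and the hatched part of each bar for cells that also held Il1rl1 UMIs. Muscle cells spread over all classes right of the dashed line, where the Gzmb rule is met, while most spleen cells held 0.

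Gzmb lies on chromosome 14 (GRCm38, minus strand, 56258838 to 56262260 in GENCODE M21). Its promoter window (RefSeq, GRCm38.p6, chr14:56262285-56262584, minus strand, 250 bases before to 50 after the start RefSeq gives) is shown because Gzmb defines these cells. It was searched on both strands for TGANTCA, the core of AP-1 sites, and for TGTGGT, the core of RUNX sites, and matches are in capitals.
Gzmb: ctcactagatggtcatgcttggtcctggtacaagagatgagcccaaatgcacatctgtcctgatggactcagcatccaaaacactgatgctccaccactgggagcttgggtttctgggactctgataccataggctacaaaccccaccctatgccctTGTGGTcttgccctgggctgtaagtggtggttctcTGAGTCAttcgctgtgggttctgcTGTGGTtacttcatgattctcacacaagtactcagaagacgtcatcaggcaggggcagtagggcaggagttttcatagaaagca
The window held 1 match to TGANTCA, starting 58 bases before the start, and 2 matches to TGTGGT, starting 93 and 34 bases before it. Of the 27025 genes with a promoter window in the table, 8.97% held TGANTCA and 18.9% held TGTGGT in any of their windows. A match describes letters in the sequence and is no evidence of binding.

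Nearly all members, which were sorted on the Foxp3 reporter, held transcripts of Treg markers. At least 1 UMI of any of Foxp3, Il2ra, Ctla4 and Ikzf2 was found in 99.6% of members in library 1 and in 99.1% in library 2. The summed level of these genes was 5710 against 4569 CPM in the matched Gzmb-0 cells of library 1 and 4863 against 3717 CPM in library 2. Ctla4 alone gave 54.1% and 46.9% of these UMIs in all members, and Foxp3 by itself is given below. Of 13 markers of CD8 T cells and NK cells, Klrd1, Klrb1c, Ncr1, Gzmk and Xcl1 were at 0 in all members. Their summed level was 0.675 UMIs per cell in members against 0.44 in Gzmb-0 cells of library 1 and 0.829 against 0.488 in library 2, and 1 of them, the chemokine gene Ccl5, gave 66.7% and 68.3% of these UMIs in all members. Cd8a, which defines CD8 T cells, had 0 UMIs in the matched members of library 1 and 1 UMI in those of library 2. All 7 mast cell and basophil markers and both measured gamma delta T cell markers were at 0. Lyz2, Csf1r, Adgre1, C1qb and Cd14 were at 0 among the myeloid markers, which stood at 0.21 against 0.15 and 0.24 against 0.194 UMIs per cell. Erythroid and platelet markers moved with the members, at 0.115 against 0.025 UMIs per cell in library 1 and 0.101 against 0.00461 in library 2, from 8 and 10 member cells, and the part of this in the results below was not tested.

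At equal depth, the shares of Gzmb-high and of Gzmb-0 muscle cells with Il1rl1 could not be told apart. Of all muscle cells with at least 2 Gzmb UMIs, 79 cells in library 1 (25.7%, 20.9 to 31) and 80 cells in library 2 (26.1%, 21.2 to 31.3) held an Il1rl1 UMI. Among cells with 0 Gzmb UMIs the shares were 20% (15.8 to 24.8) and 18.9% (14.9 to 23.5), but those cells were shallower. After every cell was thinned to 1000 UMIs, with shallower cells left out, the shares were 15.8% against 14.3% in library 1 and 14.1% against 13.2% in library 2, with overlapping intervals (11.9 to 20.4 against 10.6 to 18.8, and 10.4 to 18.5 against 9.77 to 17.3). Thinning alone lowered the share among Gzmb-high cells of library 1 from 25.7% to 15.8%, so at this depth an Il1rl1 count of 0 does not show that the transcript was missing.

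Compared with depth-matched Gzmb-0 cells, the Gzmb-high cells without Il1rl1 held more transcripts of interferon-stimulated genes. Gzmb-high cells with Il1rl1 did not share this higher level, as given below. The members also held more transcripts of the lectin-like receptor gene Klrg1, the chemokine receptor gene Ccr3 and the IL-2 receptor alpha chain gene Il2ra. They held fewer transcripts of Nrp1, Gpr183, Tmem176b, Bhlhe40 and the integrin genes Itga4 and Itgb1, and slightly fewer of nearly all ribosomal protein genes. The question was what else distinguishes the granzyme B-positive Tregs without Il1rl1 in injured muscle. A gene was called when its CPM differed at least 1.5-fold in the same direction in both muscle libraries, among the 3378 genes with at least 100 UMIs over the sums compared, leaving out Gzmb and Il1rl1. Of these, 55 genes (1.63%) were called higher and 53 (1.57%) lower. Scaled to totals without ribosomal protein genes, the split was 45 higher and 66 lower. At this depth single calls are uncertain: in library 1 alone 9.33% of genes were past 1.5-fold higher and in library 2 alone 9.83%, of which the 55 shared genes are 17.5% and 16.6%, while 29 of the genes higher in library 1 were past 1.5-fold lower in library 2. For the lower genes the shares were 9.77% and 8.14%, the shared 53 were 16.1% and 19.3%, and 41 genes were opposite. Genes were named by the size of their smaller fold and by list, so the interval of a named gene can include 1 in a library.

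**Figure D2:**
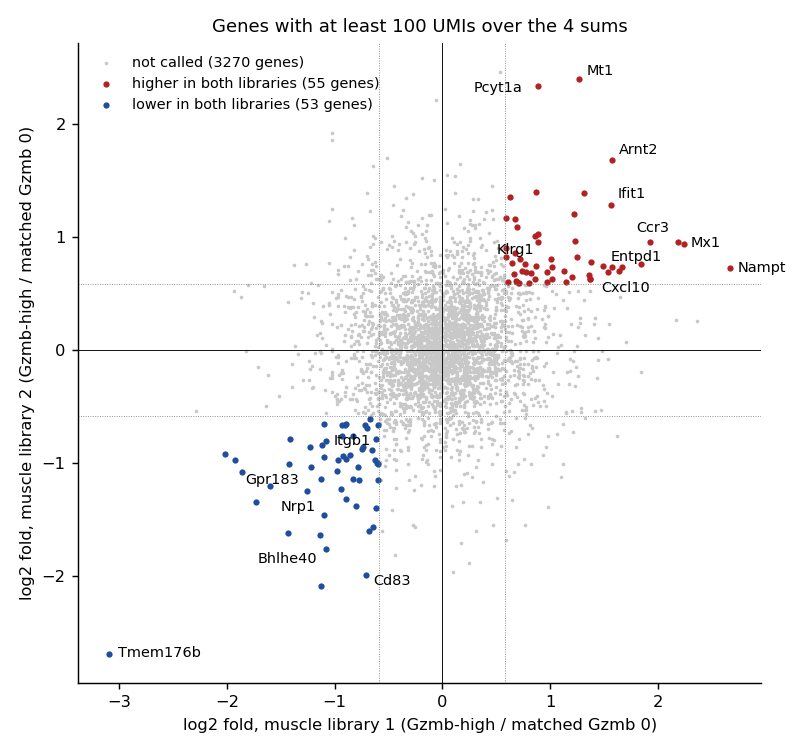
Log2 fold of Gzmb-high cells without Il1rl1 over depth-matched Gzmb-0 cells in muscle library 1 (horizontal axis) and muscle library 2 (vertical axis) for the 3378 genes with at least 100 UMIs. The 55 genes in red and the 53 in blue passed 1.5-fold (dotted lines) in both libraries, and most genes lay near 0 in both.

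Most granule genes had too few UMIs to be compared, and those that could be were not called. Of 20 genes on the cytotoxic granule list, Gzmb aside, 4 had enough UMIs and none of them was called. Srgn, which encodes serglycin, stood at 5163 against 4891 CPM in library 1 (1.06-fold, 0.994 to 1.12) and at 4745 against 4006 CPM in library 2 (1.18-fold, 1.12 to 1.25). The remaining measured genes, Ctsc (cathepsin C, which activates granzymes), Lamp1 and Rab27a (granule release), had mean log2 folds of -0.36, 0.38 and -0.13. Perforin was nearly undetected: Prf1 had 1 UMI in the matched members and 1 in the Gzmb-0 cells of library 1, and 0 and 2 in library 2. Gzma had 1 and 4 UMIs in library 1 and 0 in both classes of library 2, Gzmc had 4 against 2 and 5 against 6, and Gzme, Gzmf, Gzmg and Gzmk had 0 throughout. Nkg7, a granule membrane protein gene, had 17 against 6 UMIs in each library (2.80-fold, 1.05 to 8.68, and 2.81-fold, 1.06 to 8.71), under the minimum for a call. Serpinb9 and Serpinb6b, of the family of granzyme inhibitors, had 10 against 19 and 8 against 9 UMIs, and 20 against 23 and 12 against 16 UMIs.

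Most measured Treg identity genes had folds slightly above 1, without reaching the size of a call. Il2ra had 2.32 against 1.58 UMIs per cell in library 1 (1.45-fold, 1.26 to 1.68) and 2.57 against 1.45 UMIs per cell in library 2 (1.76-fold, 1.53 to 2.02), above in both libraries though under the fold for a call in library 1. It was seen in 67.5% against 41.5% of cells and in 65.4% against 47.9%. Foxp3 had 1.31 against 1.16 UMIs per cell (1.12-fold, 0.933 to 1.34) and 1.72 against 1.25 UMIs per cell (1.36-fold, 1.16 to 1.6), so its interval included 1 in library 1. Over the Treg identity list, 8 of 11 measured genes had a mean log2 fold above 0, with a median of 0.28 against 0.00 for all 3378 genes. In this list 0 genes were called higher and 1, Nrp1, lower, where 1.63% and 1.57% of all genes were called. Tnfrsf4 (OX40) had folds of 1.27 (1.13 to 1.42) and 1.40 (1.27 to 1.55), and Izumo1r (folate receptor 4) was 1.25-fold and 1.55-fold lower. Of the 14 genes of the IL-2 receptor list, none was called and the median was 0.17. Its signalling components Il2rb and Il2rg had mean log2 folds of 0.17 and 0.03, the STAT5 genes Stat5a and Stat5b 0.00 and -0.17, and the STAT5 target Cish 0.18. Cd4 stood at 0.802-fold (0.664 to 0.968) and 0.862-fold (0.742 to 1) of the Gzmb-0 level.

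Among tissue Treg genes, Klrg1, an inhibitory receptor of differentiated effector lymphocytes, had 1.57 against 0.775 UMIs per cell in library 1 (2.01-fold, 1.65 to 2.45) and 2.75 against 1.57 UMIs per cell in library 2 (1.74-fold, 1.52 to 2). It was found in 44.5% against 27% of cells and in 52.1% against 27.2%. With the members reduced to those with exactly 2 Gzmb UMIs, the mean log2 fold of Klrg1 was -0.03. Ccr3, the receptor for eotaxins, had 0.365 against 0.095 UMIs per cell (3.80-fold, 2.27 to 6.67) and 0.548 against 0.281 UMIs per cell (1.94-fold, 1.41 to 2.68), in 46 against 11 and 55 against 26 cells. Of the 19 measured genes of this list 2 were called higher (Klrg1 and Ccr3) and 1 lower, 16 had a mean log2 fold above 0, and the median was 0.27, where 1.63% and 1.57% of all genes were called and their median was 0.00. The lower gene was Cd83, an activation marker, with 0.35 against 0.565 UMIs per cell (1.63-fold lower, 1.2 to 2.23) and 0.23 against 0.908 UMIs per cell (3.97-fold lower, 2.90 to 5.53). Areg, which encodes the repair factor amphiregulin, had 0.745 against 0.52 UMIs per cell (1.42-fold, 1.10 to 1.84) and 0.82 against 0.806 UMIs per cell (1.01-fold, 0.815 to 1.25), so the difference of library 1 was not repeated in library 2.

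Of 10 measured suppressive molecules, 2 were called higher and 1 lower, where 1.63% and 1.57% of all genes were called, and the median was 0.23 against 0.00 for all genes. Fgl2, a secreted suppressive mediator of Tregs, had 1.45 against 0.79 UMIs per cell (1.81-fold, 1.49 to 2.21) and 1.03 against 0.659 UMIs per cell (1.55-fold, 1.25 to 1.92), with a mean log2 fold of -0.15 for members with exactly 2 Gzmb UMIs. The enzymes of the pathway from extracellular ATP to adenosine split: Entpd1 (CD39), which degrades ATP, had 51 against 18 UMIs (2.80-fold, 1.61 to 5.10) and 37 against 22 UMIs (1.67-fold, 0.959 to 2.97), while Nt5e (CD73), the next enzyme of the pathway, had 27 against 58 UMIs (2.17-fold lower, 1.35 to 3.57) and 36 against 64 UMIs (1.79-fold lower, 1.17 to 2.77). Ctla4 had folds of 1.26 (1.16 to 1.37) and 1.17 (1.07 to 1.26), and Icos and Lgals1 had mean log2 folds of 0.18 and 0.33. Il10 had 73 against 89 UMIs and 91 against 84 UMIs, with intervals of 0.587 to 1.12 and 0.790 to 1.46. Ebi3, Pdcd1 and Cd274 had mean log2 folds of 0.33, -0.14 and -0.29.

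**Figure D3:**
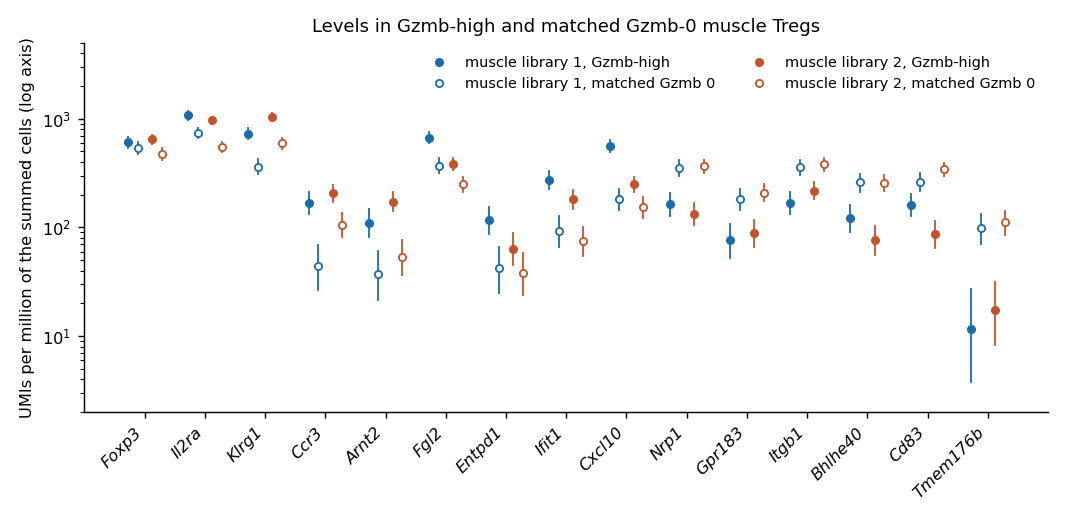
Level of 15 genes in CPM of the summed cells (log axis) in Gzmb-high cells without Il1rl1 (filled) and depth-matched Gzmb-0 cells (open) of muscle library 1 (blue) and muscle library 2 (orange), with exact Poisson 95% intervals. Klrg1, Ccr3, Arnt2 and Ifit1 lay higher in the Gzmb-high cells of both libraries, and Nrp1, Gpr183, Itgb1, Bhlhe40, Cd83 and Tmem176b lower.

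Interferon-stimulated genes, which type I and II interferons switch on against viruses and intracellular microbes, had the highest median of the 23 gene lists. All 22 measured genes of the list had a mean log2 fold above 0, with a median of 0.45, 6 were called higher and 0 lower, against 1.63% of all genes called higher. The summed list took 0.693% of UMIs in members against 0.492% in library 1 (1.41-fold, 1.33 to 1.49) and 0.621% against 0.463% in library 2 (1.34-fold, 1.28 to 1.41). The median of the list was between 0.31 and 0.54 under other scalings and weightings, after thinning, without matching, for members with at least 5 Gzmb UMIs and with Il1rl1 left out of the rule. The number of the 22 genes called higher varied more. It was 3 with Il1rl1 left out of the rule, 4 without matching and 8 for members with at least 5 Gzmb UMIs. Members with exactly 2 Gzmb UMIs, by contrast, lay near the Gzmb-0 cells, as given below. Ifit1, an RNA-binding antiviral protein, had 0.595 against 0.2 UMIs per cell (2.94-fold, 2.04 to 4.32) and 0.484 against 0.198 UMIs per cell (2.42-fold, 1.68 to 3.54), in 32 against 19 and 31 against 15 cells. Isg20, an RNA exonuclease, had 0.675 against 0.42 UMIs per cell (1.59-fold, 1.2 to 2.11) and 1.17 against 0.516 UMIs per cell (2.24-fold, 1.79 to 2.83). Ifit3 had folds of 2.20 (1.43 to 3.44) and 1.62 (1.03 to 2.59), but near-identical Ifit3b can take its reads. Mx1, a dynamin-like GTPase, had 62 against 13 and 31 against 16 UMIs, and Iigp1, an immunity-related GTPase, had 89 against 34 and 61 against 39 UMIs, with a mean log2 fold of -0.50 for members with exactly 2 Gzmb UMIs. Ifitm3, which blocks virus entry, had 47 against 18 and 42 against 27 UMIs, with an interval of 0.930 to 2.60 in library 2. The interferon-induced chemokine gene Cxcl10, of the chemokine list, had 1.23 against 0.39 UMIs per cell (3.11-fold, 2.4 to 4.06) and 0.664 against 0.406 UMIs per cell (1.62-fold, 1.24 to 2.14), although it was found in 24 members against 25 Gzmb-0 cells in library 2.

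The interferon UMIs were concentrated in few cells of both classes. The 20 highest matched members held 43.2% of the list's UMIs in library 1, and the 22 highest held 39.4% in library 2, against 39.5% and 40.8% in the matched Gzmb-0 cells. The median cell also differed, with 8 list UMIs per member against 6 in library 1 (quartiles 4 and 16 against 3 and 13) and 9 against 7 in library 2 (4 and 22 against 3 and 15). The ranges overlapped, from 0 to 90 UMIs in members and from 0 to 81 in Gzmb-0 cells of library 2, while in library 1 the highest member lay far above the highest Gzmb-0 cell, which held 83 UMIs.

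The promoter windows of Ifit1 (RefSeq, GRCm38.p6, chr19:34640639-34640938, plus strand) and Ifit3 (chr19:34583279-34583578, plus strand) are shown as examples of the interferon genes called higher. Ifit3 was named after its values were seen, and its folds were under those of Mx1 in both libraries. Capitals mark matches on either strand to GAAA followed by any 2 bases and GAAA, the core of the interferon-stimulated response element.
Ifit1: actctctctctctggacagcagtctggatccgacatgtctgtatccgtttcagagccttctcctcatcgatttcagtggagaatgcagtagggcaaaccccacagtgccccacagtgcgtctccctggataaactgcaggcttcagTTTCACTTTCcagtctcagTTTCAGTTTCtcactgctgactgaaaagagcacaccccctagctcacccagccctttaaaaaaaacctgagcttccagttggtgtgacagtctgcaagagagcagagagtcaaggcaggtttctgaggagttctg
Ifit3: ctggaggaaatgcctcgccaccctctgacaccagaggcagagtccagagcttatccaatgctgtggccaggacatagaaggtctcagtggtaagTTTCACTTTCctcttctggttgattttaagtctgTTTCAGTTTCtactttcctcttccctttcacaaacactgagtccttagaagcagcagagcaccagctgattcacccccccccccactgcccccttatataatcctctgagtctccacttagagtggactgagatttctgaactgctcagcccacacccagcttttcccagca
Each window held 2 matches, all before the start. Of the 22 measured interferon genes 16 had a window in the table and 11 of those (68.8%) held the motif, against 3.99% of all 27025 genes. Among the 55 genes called higher, 44 had a window and 6 of those (13.6%) held it, and among the 53 called lower it was 1 of 42 (2.38%). TGANTCA, found once in the Gzmb window, was in 9 of those 44 higher genes (20.5%) and 0 of those 42 lower genes, against 8.97% of all genes. TGTGGT, the other motif of that window, was in 20.5% of the higher and 11.9% of the lower genes, against 18.9% of all genes. In all these shares a gene counted when any of its windows held the motif. The 44 higher genes had 64 windows, the 42 lower genes 50 and the 27025 genes 32851. A gene with more windows has more chances of a match, and the shares were not corrected for this. The 27025 genes are all genes with a window, not only those tested, so the shares are a description only.

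Other genes led the higher calls by the size of the smaller fold. Arnt2, a basic helix-loop-helix PAS transcription factor gene, had 0.24 against 0.08 UMIs per cell (2.97-fold, 1.66 to 5.60) and 0.461 against 0.143 UMIs per cell (3.20-fold, 2.12 to 4.96), in 27 against 12 and 40 against 13 cells. Mt1, a metallothionein gene, had 39 against 16 UMIs (2.41-fold, 1.32 to 4.62) and 53 against 10 UMIs (5.26-fold, 2.65 to 11.6). Agpat4, a lysophosphatidic acid acyltransferase gene, was at 2.33-fold and 2.29-fold. The intervals of Pcyt1a and Slc25a1 included 1 in library 1: Pcyt1a, of phosphatidylcholine synthesis, was at 1.86-fold (0.980 to 3.64) and 5.05-fold (2.69 to 10.3) and Slc25a1, the mitochondrial citrate carrier gene, at 1.85-fold (0.953 to 3.72) and 2.03-fold. Mfsd5, a membrane transporter gene, Hivep2, a zinc finger factor gene, Cln3, a lysosomal membrane protein gene, and Dhx40, a helicase gene, had mean log2 folds of 1.35, 1.09, 1.57 and 0.92, and Cln3 had -0.45 with exactly 2 Gzmb UMIs. Ccl5 had 0.49 against 0.265 UMIs per cell (1.83-fold, 1.30 to 2.61) and 0.59 against 0.221 UMIs per cell (2.65-fold, 1.89 to 3.77), from 32 against 17 and 36 against 13 cells. In the effector and memory list 2 of 16 measured genes were called higher, Lgals3 (galectin 3; 2.90-fold and 1.62-fold) and Lmna (lamin A; 1.96-fold, 1.59 to 2.42, and 1.51-fold, 1.30 to 1.76), 1 was called lower (Itgb1, below), and 13 had a mean log2 fold above 0, with a median of 0.2. Of all genes 1.63% were called higher and 1.57% lower. Ly6a (Sca-1) had folds of 1.49 (1.36 to 1.62) and 1.58 (1.47 to 1.70), just under the call in library 1.

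The lower genes were led by Tmem176b, a multispan membrane protein gene, with 5 against 42 UMIs in library 1 (8.49-fold lower, 3.36 to 27.5) and 10 against 64 UMIs in library 2 (6.45-fold lower, 3.29 to 14.1). Those UMIs came from 15 and 20 Gzmb-0 cells. Nrp1, a semaphorin receptor gene used as a marker of thymus-derived Tregs, had 0.355 against 0.755 UMIs per cell (2.15-fold lower, 1.61 to 2.89) and 0.355 against 0.968 UMIs per cell (2.75-fold lower, 2.11 to 3.62), in 20% against 33.5% and 17.1% against 34.1% of cells. Gpr183, an oxysterol receptor gene that guides migration, was 2.39-fold (1.57 to 3.71) and 2.37-fold (1.69 to 3.36) lower, Itga4 was 2.18-fold (1.34 to 3.66) and 4.27-fold (2.63 to 7.24) lower, and Itgb1, its partner chain, was 2.12-fold (1.59 to 2.84) and 1.75-fold (1.40 to 2.20) lower. The list of chemokines and homing as a whole went both ways, with 2 of 19 measured genes called higher (Ccl5 and Cxcl10), 2 lower (Itga4 and Itgb1), 11 above 0 and a median of 0.15. Over all genes 1.63% were called higher and 1.57% lower, and the median was 0.00. Bhlhe40, a transcription factor gene, had 0.265 against 0.555 and 0.203 against 0.682 UMIs per cell (2.12-fold lower, 1.51 to 2.99, and 3.39-fold lower, 2.41 to 4.86). Il1r2, the IL-1 decoy receptor gene, had 10 against 36 and 19 against 40 UMIs. The immediate early genes Jun and Egr1 were 1.74-fold and 1.77-fold lower in library 1 and 2.60-fold and 2.21-fold lower in library 2, and the mean log2 fold of Jun was 0.50 with exactly 2 Gzmb UMIs. The remaining leaders, Prps1 (nucleotide synthesis), Usp34 (deubiquitinase), Eif2b2 (translation initiation), Nop58 (ribosome assembly), Cdkn2c (cell cycle inhibitor) and Nsun2 (RNA methylation), had few UMIs (Prps1 9 against 24 and 17 against 52) and mean log2 folds from -1.54 to -1.13. Many of the genes named here overlap another annotated gene, among them Bhlhe40, Gpr183, Tmem176b, Jun, Itga4, Nrp1, Arnt2, Cln3, Pcyt1a, Entpd1, Il2ra, Foxp3, Cxcl10 and Fgl2, and whether the counting used strand was not given in the sources used here.

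**Figure D4:**
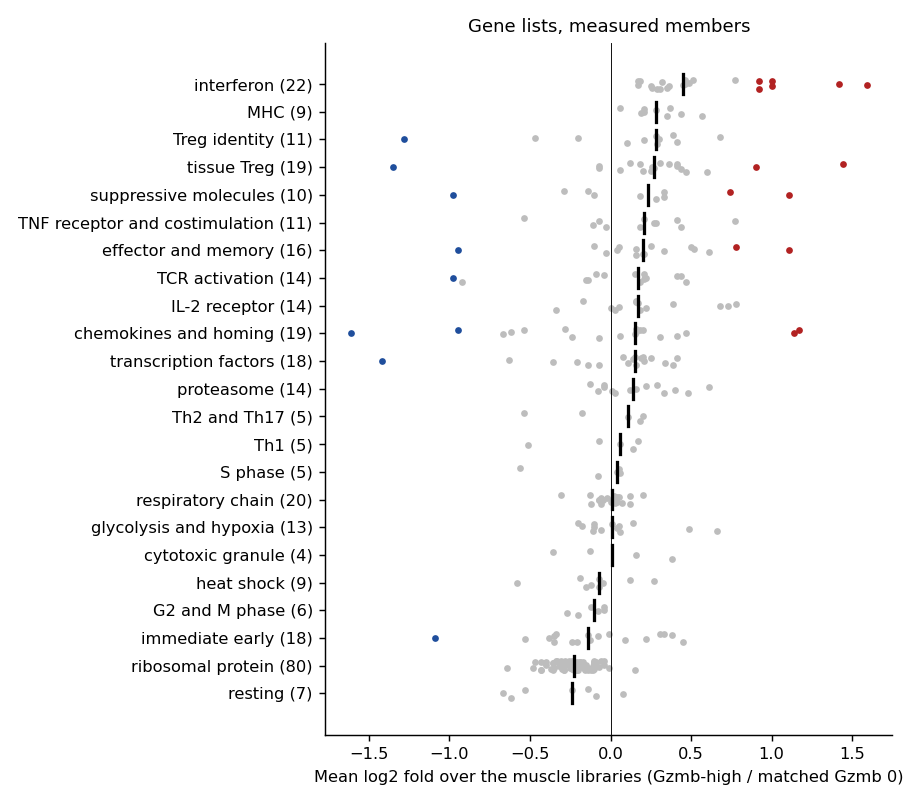
Mean log2 fold over the muscle libraries (Gzmb-high without Il1rl1 over depth-matched Gzmb-0) for the measured members of 23 gene lists, their number in brackets, with a black bar at each list's median, red for genes called higher and blue for genes called lower. The interferon list has the highest median (0.45, all 22 points above 0), and 79 of 80 ribosomal protein genes lie below 0.

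Ribosomal protein genes were lower as a block. Of 80 measured genes 1 had a mean log2 fold above 0, the median was -0.23, and none was called. Together they took 12.5% of UMIs in members against 14.4% in library 1 (0.867-fold, 0.857 to 0.877) and 12.6% against 14.9% in library 2 (0.844-fold, 0.835 to 0.852). The resting T cell list had a median of -0.24 over 7 measured genes and no call, with S1pr1, which lets T cells leave tissue, at 1.37-fold (1.02 to 1.84) and 1.73-fold (1.32 to 2.29) lower. All 9 measured genes of the MHC list had a mean log2 fold above 0 (median 0.28, no call), and the list took 3.12% against 2.70% and 3.14% against 2.69% of UMIs. The lists of the S phase (median 0.04, 5 genes), the G2 and M phase (-0.10, 6 genes), glycolysis (0.01, 13 genes) and the respiratory chain (0.01, 20 genes) lay near 0 with no call. The lists of TCR activation (14 genes), Th1 (5 genes), Th2 and Th17 (5 genes), TNF receptors and costimulation (11 genes), transcription factors (18 genes), proteasome (14 genes), heat shock (9 genes) and immediate early genes (18 genes) had medians from -0.14 to 0.21, 0 genes called higher and 3 lower (Bhlhe40, Egr1 and Jun). Over all genes tested 1.63% were called higher and 1.57% lower.

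Cells with exactly 1 Gzmb UMI had no part in choosing the called genes, and their level of these genes lay between the classes. The genes were picked for opposite extremes in the members and the Gzmb-0 cells. A class outside that choice tends to fall between them, so its position is a description only. In them the 55 higher genes took 0.697% of UMIs in library 1 and 0.612% in library 2, above the Gzmb-0 cells at 0.498% and 0.516%, and the 53 lower genes took 0.572% and 0.606% against 0.666% and 0.669%. The intervals of the lower genes overlapped in library 2 (0.559 to 0.657 against 0.650 to 0.689), and the Gzmb-0 cells, unlike those with 1 UMI, had helped to choose both sets. Members with exactly 2 Gzmb UMIs, which had a part in the choice, were at 0.813% and 0.775% for the higher genes and at 0.401% and 0.316% for the lower genes. The interferon list followed another course. It was at 0.492% and 0.487% in Gzmb-0 cells, at 0.507% and 0.496% with 1 UMI and at 0.486% and 0.507% with 2, and within the members it increased over tertiles of the Gzmb share of the cell, from 0.566% to 0.651% to 0.805% in library 1 and from 0.479% to 0.654% to 0.725% in library 2. Each tertile held 75 or 76 cells, and the intervals of the highest tertile (0.764 to 0.847, and 0.688 to 0.764) lay above those of the lowest (0.534 to 0.6, and 0.452 to 0.507). These intervals cover counting error only. Few cells held much of the list's UMIs, and the spread between cells is not in the intervals. The highest tertile was shallower than the lowest, at a median of 2042 against 2272 UMIs and 2156 against 2710 UMIs. Ribosomal protein genes were lowest in the highest tertile, at 13.1%, 13.3% and 12% over the tertiles of library 1 and at 13.7%, 12.5% and 12.1% in library 2.

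**Figure D5:**
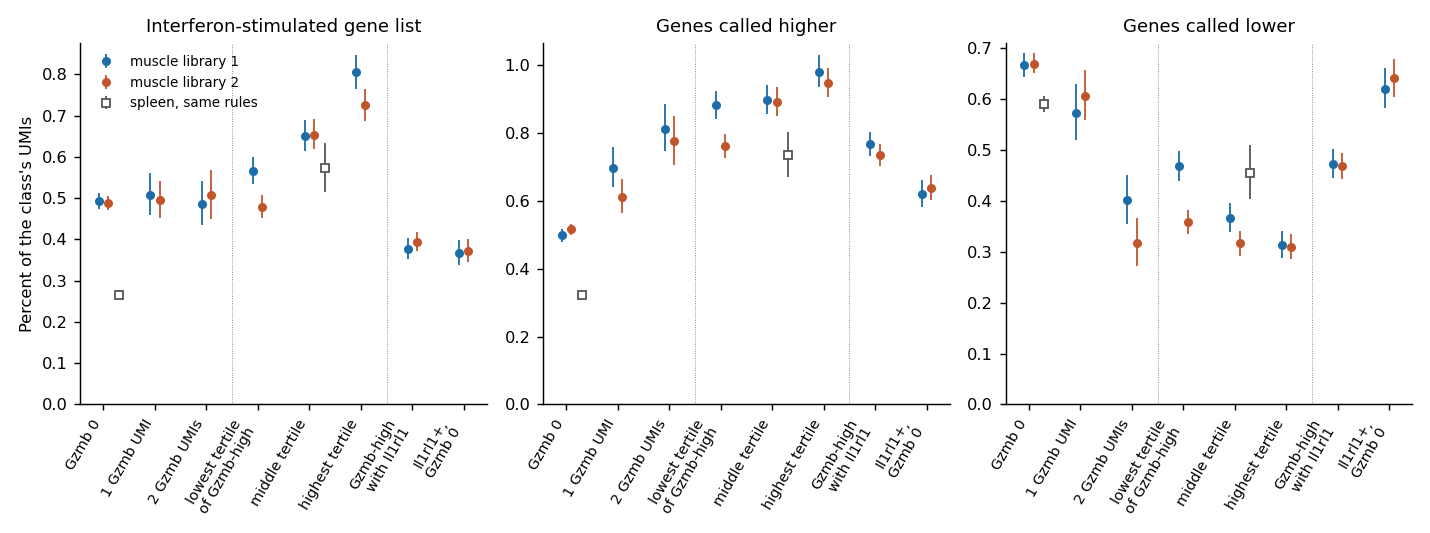
Percent of a class's UMIs (vertical axis, from 0) in the interferon list, in the 55 genes called higher and in the 53 called lower, for cell classes ordered by Gzmb and Il1rl1 (horizontal axis), in both muscle libraries and in the spleen cells chosen by the same rules, with exact binomial 95% intervals. The interferon list is highest in the highest Gzmb tertile (0.805% and 0.725%) and lowest among muscle classes in cells with Il1rl1 (0.367% to 0.394%).

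Against muscle Tregs with Il1rl1 and no Gzmb, the difference was led by interferon genes. In 63 and 64 depth-matched pairs, 44 of 1192 genes with enough UMIs (3.69%) were called higher in the Gzmb-high cells and 21 (1.76%) lower, against 14.3% and 11.7% in library 1 alone and 10.7% and 9.82% in library 2 alone. Of 14 measured interferon genes 11 were called higher, 0 lower, and all 14 had a mean log2 fold above 0 (median 1.16, against 0.01 for all genes). Isg15, a ubiquitin-like modifier gene, had 66 against 20 UMIs (3.29-fold, 1.97 to 5.74) and 88 against 28 UMIs (3.15-fold, 2.04 to 5.01). Igtp, an immunity-related GTPase gene, had 1.44 against 0.413 UMIs per cell (3.49-fold, 2.24 to 5.63) and 1.92 against 0.656 UMIs per cell (2.94-fold, 2.05 to 4.27), and Bst2 (tetherin) was 2.20-fold and 3.42-fold higher. Phf11a and Phf11d, near-identical neighbours whose reads cannot be told apart with certainty, had 41 against 11 and 58 against 15 UMIs, and 34 against 10 and 43 against 16 UMIs. Socs2, a STAT5-induced inhibitor gene, had 58 against 24 UMIs (2.41-fold, 1.48 to 4.06) and 42 against 9 UMIs (4.68-fold, 2.25 to 10.9). The lower genes were led by Bhlhe40, with 0.19 against 1.35 and 0.109 against 1.98 UMIs per cell, and by Cd83, with 0.429 against 1 and 0.219 against 2.06 UMIs per cell. Tubb5 (tubulin), Skp1a (ubiquitin ligase), Kdm6b (histone demethylase) and Smc4 (condensin) followed, with mean log2 folds from -1.27 to -0.87. Matching kept 27.6% and 28.2% of the members, and this comparison shares its members with the comparison above.

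A further comparison, added after the class sizes were known, set the members beside Gzmb-high muscle cells with Il1rl1 (78 and 80 depth-matched pairs). Gzmb itself, which the rule used, stood at 4551 and 4143 CPM over all Gzmb-high cells with Il1rl1. Of 1808 genes, 29 (1.6%) were called higher in the members and 26 (1.44%) lower, against 9.18% and 10.8% in library 1 alone and 10.3% and 10.1% in library 2 alone, and 19 genes higher in library 1 and 33 genes lower there were past 1.5-fold the other way in library 2. No gene of 19 in the tissue Treg list and none of 6 suppressive molecules was called. Of the 14 measured interferon genes 5 were called higher (Isg15, Isg20, Bst2, Ifi47 and Gbp4), 13 had a mean log2 fold above 0 and the median was 0.65, against 0.00 for all genes. Ifi47 had 1.51 against 0.538 UMIs per cell (2.81-fold, 1.96 to 4.09) and 1.3 against 0.613 UMIs per cell (2.13-fold, 1.5 to 3.05), and Isg20 had 1.09 against 0.41 and 1.54 against 0.838 UMIs per cell. Over all cells of the class, and so not matched for depth, the interferon list took 0.377% and 0.394% of UMIs in Gzmb-high cells with Il1rl1 and 0.367% and 0.371% in Gzmb-0 cells with Il1rl1, against 0.669% and 0.609% in all members. In Gzmb-0 cells without Il1rl1 it took 0.492% and 0.487%. A level above those Gzmb-0 cells was thus found in the members and not in Gzmb-high cells with Il1rl1. Embigin (Emb), an adhesion glycoprotein gene named after its values were seen, was lower in the members, with 1.01 against 1.96 UMIs per cell and 0.8 against 2.16 UMIs per cell.

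In the spleen, 12 cells met the same rule. They had no part in choosing the genes, and the 55 genes called higher in muscle took 0.734% of their UMIs (0.670 to 0.803) against 0.310% (0.269 to 0.356) in 12 depth-matched Gzmb-0 spleen cells, 2.37-fold more (2 to 2.81). Over totals without ribosomal protein genes it was 2.14-fold. Genes with many UMIs weigh most in this sum, and how evenly the 55 genes carry it was not tested. The interferon list took 0.573% (0.516 to 0.634) in these 12 cells and 0.266% (0.255 to 0.277) in all Gzmb-0 spleen cells, and ribosomal protein genes 14.5% and 23.1%. Klrg1, 1 of the 55 genes, was at 1643 CPM in the 12 cells and at 77.9 CPM in Gzmb-0 spleen cells. Ccr3 was found in 50% and 0.426% of those cells, and all 9 Arnt2 UMIs of the 12 cells came from 1 cell. Nrp1 was found in 41.7% of the 12 cells against 38.3%. These shares are not matched for depth, unlike those of muscle, so they do not show whether Nrp1 was lower in the spleen cells. The spleen Gzmb-high cells had a median of 5333 UMIs and the Gzmb-0 spleen cells 3438.

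Between the tissues, 16.9% of 2279 genes were at least 2-fold higher in the muscle Gzmb-high cells than in the 12 spleen cells in both muscle libraries, and 6.14% lower. Both libraries were set against the same 12 cells, so the folds are not independent, and 1 spleen UMI stands for 15.4 CPM. The median log2 fold of all genes was 0.12. It moved to 0.31 with TMM factors and to 0.26 with DESeq2 size factors, and folds are read relative to that shift. After thinning to 1000 UMIs per cell the median over the same 2279 genes was -0.43. For a fold, a class without UMIs of a gene was set to 3 UMIs. This floor weighs most in the small thinned spleen sum, so -0.43 is not read as a shift. The cells were not matched for depth, at medians of 2105 and 2446 UMIs in muscle and 5333 UMIs in spleen. Thinning left 784 genes tested, and 41 higher and 13 lower calls were shared with the unthinned cells. Of the 11 measured genes of the TNF receptor and costimulation list, 6 were called higher in muscle (Tnfrsf4, Tnfrsf9, Cd27, Traf1, Traf3 and the tetraspanin gene Cd81) and none lower, with a median of 1.14. Cd28, which is not of the TNF receptor family, was at 0.591 and 0.537 of the spleen level. Tnfrsf4 stood at 1505 and 1727 CPM in muscle (4.45-fold and 5.11-fold), and Tnfrsf9 (4-1BB) at 1519 and 1239 CPM (4.94-fold and 4.03-fold). Ctla4 was 3.05-fold and 2.33-fold higher and Il2ra 2.54-fold and 2.35-fold higher, while Foxp3 was at 0.906-fold (0.651 to 1.29) and 1.03-fold (0.743 to 1.46). The order of the leaders depends on this floor. A gene with 1 spleen UMI kept that count, while a gene without any was set to 3. The leading gene, Lmna, had 1 UMI in the spleen cells, and muscle was 39.8-fold (7.10 to 1578) and 46.8-fold (8.36 to 1853) higher. Isy1 (splicing), Pmepa1 (TGF-beta signalling), Pitpna (phosphatidylinositol transfer) and Mlf2 had 1 spleen UMI each, with folds from 11 to 17.2, and Fosb, an immediate early gene, had 3 (13.3-fold, 4.51 to 64.7, and 13.4-fold, 4.55 to 65.2). S1pr1, which recirculating T cells use, was lower in muscle, at 0.22 and 0.18 of the spleen level. Rmnd5a, Smek1, Gramd3, Top1 and Zfp871 led the lower genes, at 0.106 to 0.244 of the spleen level. Muscle was digested enzymatically and spleen was not, so tissue and dissociation cannot be told apart.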

How the data were processed

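Transcripts of single sorted Tregs were counted in 1 spleen and 2 muscle libraries. The authors deposited counts of UMIs per gene and cell, 23725 genes by 1627 cells, made by the inDrops protocol per the labels' protocols. The submitters' processing notes name TopHat2, SAMtools and the mm10 build, and the sources used here give no versions, filters on cells or strand setting. Each GEO sample is 1 cell and no animal is named, so no test was made and a difference shows only how these libraries differ. The rule took 455 cells, 228 of 674 in muscle library 1 and 227 of 694 in muscle library 2, and 12 of 259 in spleen, and 200 and 217 members were paired with Gzmb-0 cells. Counts were summed per library and class, divided by the summed total (CPM), and compared as folds with exact conditional binomial 95% intervals. For a fold, a class without UMIs of a gene was set to 3 UMIs. Levels have exact Poisson intervals and shares exact Clopper-Pearson ones. Members and comparison cells were paired within a library on log2 UMIs (at most 0.1 apart). A call needed 1.5-fold in both muscle libraries (2-fold for spleen) and at least 100 UMIs over the sums compared. Gzmb and Il1rl1 were left out of calls. Depth per library and class is given in the text.

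The members and gene lists were chosen with earlier results of these data known. Named genes were the 12 called each way with the largest smaller log2 fold (6 in other comparisons), leaving out ribosomal, predicted and T cell receptor segment genes. Added to these were all measured genes of the cytotoxic granule, suppressive and IL-2 receptor lists and up to 4 of each other list by size of the mean log2 fold. A gene that these rules name is not reported here. Other genes were named after their values were seen, among them Nkg7, Emb, Areg, Isg20, Ifit3, Ifi47, Gbp4 and the granule genes under 100 UMIs. Doublets were not called: 4 and 2 members exceeded 3 times their library's median UMIs. The alternatives were other scalings, UMI minimums, folds, weights, matchings, thinning to 1000 UMIs and other Gzmb thresholds. Scripts were tested on simulated data. Tables were computed in Python 3.11.15 with scipy 1.17.1, pandas 2.3.3 and numpy 2.4.6, and plotted with matplotlib 3.10.9, beside R 4.3.3. edgeR 4.0.16 and DESeq2 1.42.0 gave scaling factors only. Gene positions came from GENCODE M21 (211 of 214 genes found) and promoters from RefSeq GRCm38.p6.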

Additional observations from a re-analysis of the deposited data

How the results depend on the processing

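The number of genes called depended mostly on the UMI minimum, the fold and the demand that both libraries share a call. Values are percent of genes tested called higher and lower, and a count was taken as moved when it differed over 1.5 times. Against matched Gzmb-0 cells (1.63% and 1.57%), they were 2.96% and 3.75% with no minimum beyond 1 UMI, 2.71% and 2.86% at 50 UMIs, 1.15% and 0.711% at 200 UMIs, 8.85% and 8.64% at 1.2-fold, and 0.148% and 0.385% at 2-fold. They were 9.33% and 9.77% in library 1 alone, 9.83% and 8.14% in library 2 alone, 1.76% and 1.36% after thinning to 1000 UMIs, and 3.39% and 1.04% for members with exactly 2 Gzmb UMIs. Against Il1rl1-positive Gzmb-0 cells (3.69% and 1.76%), the same settings up to 2-fold gave 4.08% and 3.93%, 5.15% and 3.86%, 2.98% and 1.05%, 10.5% and 10.5%, and 1.09% and 0.252%. There, library 1 alone gave 14.3% and 11.7%, library 2 alone 10.7% and 9.82%, thinning 1.67% and 1.44%, no matching 4.94% and 2.42%, and weighting by UMI bins 5.5% and 4.92%. With equal weight per cell 3.44% were lower, so that 49.4% of calls were higher in place of 67.7%. Against the spleen cells (16.9% and 6.14%), they were 5.81% and 16.6% with no minimum, 16.6% and 9.12% at 50 UMIs, 11.4% and 3.5% at 200 UMIs, 26.6% and 15.1% at 1.5-fold, and 7.24% and 1.36% at 3-fold. Thinning gave 14.8% and 6.63%, and in library 2 alone 10.5% were lower. The median of all genes was -0.43 after thinning, which is not read as a shift, because genes without spleen UMIs were set to 3. With no minimum and after thinning, such genes can count as lower. Against Gzmb-high cells with Il1rl1 (1.6% and 1.44%), library 1 alone gave 9.18% and 10.8% and library 2 alone 10.3% and 10.1%. The spleen share of 2.37-fold became 17.4-fold with the 5 genes called at 2-fold, for which no interval is given. Arnt2 is among these 5 genes, and all its UMIs in the Gzmb-high spleen cells came from 1 cell. The counts under the remaining settings, among them TMM factors and DESeq2 size factors, stayed within 1.5 times, but the genes turned over. Of the 55 higher and 53 lower genes against matched Gzmb-0 cells, 55 and 50 were shared with TMM factors and 41 and 46 with equal weight per cell. Shared were 23 and 31 without matching, 29 and 29 with weighting by UMI bins, 33 and 38 at 3 Gzmb UMIs or more, 22 and 22 at 5 or more, 28 and 32 at 1 or more, 26 and 34 with Il1rl1 left out of the rule, 9 and 9 after thinning (fewer genes tested), and 0 and 0 with exactly 2 Gzmb UMIs (fewer genes tested). Of 1723 mean log2 folds of named genes under alternatives, 79.7% moved by less than the SD between the libraries and 20% by more. For members with exactly 2 Gzmb UMIs 74 moved by more and 19 by less. A change of sign was counted for called genes only. It was found for 5 values, all for members with exactly 2 Gzmb UMIs: Cln3 (-0.45), Fgl2 (-0.15), Klrg1 (-0.03), Iigp1 (-0.50) and Jun (0.50). The cause was not tested. No paired analysis was possible because the labels number single cells and name no animals. Folds were taken within each library.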
